A study of Mus musculus with 16 samples.

Results

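Whole lungs of smoke-exposed Mmp28 knockout mice were set against those of smoke-exposed wild-type mice on Illumina MouseRef-8 v2 arrays, which read each transcript with an oligonucleotide probe carried on beads. The comparison takes 10 of the 16 arrays in the series: 5 of knockout lung after smoke and 5 of wild-type lung after smoke. The knockout group (KO smoke) was Mmp28-/- on a C57BL/6 background and the control group (WT smoke) was C57BL/6. Smoke came from 3R4F reference cigarettes, breathed by both genotypes in daily sessions of 3 hours, with 5 sessions a week for 3 months, from an age of 7 to 9 weeks, and the labels describe the groups as matched for age and gender. The other 6 arrays, 3 of knockout and 3 of wild-type lung in room air, served here as a second pair of groups and helped to estimate the spread. RNA came from the whole organ, so that a lower signal from fewer cells of a type and from less RNA per cell cannot be told apart. The labels call the arrays of a group replicates without saying that each came from a separate animal, and p-values therefore measure the spread between these samples. The number of arrays limits the precision.

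MMP28, also called epilysin, is a secreted zinc-dependent matrix metalloproteinase of epithelium and macrophages. Metalloproteinases cut collagens, elastin and other proteins of the extracellular matrix and also process cytokines and cell surface molecules. In smoke-exposed lung, macrophages and neutrophils are the main carriers of enzymes that degrade elastin, and loss of alveolar walls (emphysema) follows long exposure.

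Few probes passed the test between the genotypes under smoke. Of 15489 tested probes, 7 (0.0452%) passed a Benjamini-Hochberg adjusted p under 0.05 in limma, 4 (0.0258%) higher and 3 (0.0194%) lower in KO smoke. They belong to 5 genes. Cuedc1, Tlcd2 and Cfl2 rose in knockout lung, and Unc45b and Csf3r fell. Cuedc1, Tlcd2 and Unc45b, with 5 of the 7 probes, lie on chromosome 11, which also carries Mmp28 and which holds 8.63% of the tested probes. No member of 35 lists of pathway genes and cell type markers passed the test on the probe that stood for it. The median log2 difference of the neutrophil markers was -0.59 and that of the natural killer cell markers 0.35, against 0.00 over all tested genes.

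The promoters of 4 called genes are printed here: those of the 3 called genes on the chromosome of Mmp28, and that of Csf3r, the called gene that is also a neutrophil marker. Cfl2 is not shown. Each run holds the 250 bases before the transcription start in RefSeq GRCm38.p6, plus strand, 5′ to 3′. All 5 called genes had an entry, and for Cuedc1 the first of its 2 starts is shown. Capitals mark matches, on either strand, to an E-box (CANNTG) or to the core that ETS factors such as PU.1 bind (GAGGAA). The positions are chr11:88098896-88099145 for Cuedc1, chr11:82911003-82911252 for Unc45b, chr11:75467800-75468049 for Tlcd2 and chr4:126024409-126024658 for Csf3r.
Cuedc1: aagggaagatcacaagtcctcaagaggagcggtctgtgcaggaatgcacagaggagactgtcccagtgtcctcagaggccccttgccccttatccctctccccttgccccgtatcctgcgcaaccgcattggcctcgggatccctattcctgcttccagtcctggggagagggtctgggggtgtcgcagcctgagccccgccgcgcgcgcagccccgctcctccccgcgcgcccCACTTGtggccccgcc
Unc45b: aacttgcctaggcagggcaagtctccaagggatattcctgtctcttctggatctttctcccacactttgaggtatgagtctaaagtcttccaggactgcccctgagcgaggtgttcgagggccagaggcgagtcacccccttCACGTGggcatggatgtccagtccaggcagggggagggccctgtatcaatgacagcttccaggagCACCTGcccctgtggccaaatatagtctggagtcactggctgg
Tlcd2: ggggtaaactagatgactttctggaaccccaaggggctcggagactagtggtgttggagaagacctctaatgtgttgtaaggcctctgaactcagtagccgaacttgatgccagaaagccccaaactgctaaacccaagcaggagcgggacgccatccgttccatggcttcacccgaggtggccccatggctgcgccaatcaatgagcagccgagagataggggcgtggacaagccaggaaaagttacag
Csf3r: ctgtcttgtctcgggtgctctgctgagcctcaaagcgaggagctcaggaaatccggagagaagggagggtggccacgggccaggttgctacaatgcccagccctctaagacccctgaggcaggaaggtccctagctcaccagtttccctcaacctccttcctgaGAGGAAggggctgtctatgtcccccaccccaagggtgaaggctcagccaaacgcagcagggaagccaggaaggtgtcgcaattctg
The Cuedc1 run held 1 E-box and the Unc45b run 2, Csf3r held 1 ETS core, and Tlcd2 held neither. Of 32851 promoters of this length in the table, 66.2% held an E-box and 23.3% an ETS core, so these matches are common. A GC box (GGGCGG, in 32.7% of promoters) and a TATA box (TATAAA, in 12.4%) were searched too and matched none of the 4 runs. The matches are descriptions of letters and were not tested as binding sites.

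KO smoke arrays had 14685 to 15238 detected probes and WT smoke arrays 14472 to 14749 (exact permutation p = 0.0556, 2-sided, n = 5 each). The background signal was 126 ± 2.81 intensity units in KO smoke and 131 ± 2.51 in WT smoke (SD, n = 5 each), lower in KO smoke (exact permutation p = 0.0159, 0.0476 after adjustment over 3 array measures). Its part in the results below was not tested beyond a fit with the background as a covariate, which called 4 probes, all of Cuedc1, Unc45b and Tlcd2. Spearman correlations ran from 0.976 to 0.991 between arrays of the same genotype under smoke and from 0.974 to 0.989 between genotypes. The first principal component of the 10 smoke arrays held 23.8% of the variance and set KO smoke replicate 3 apart, and 8 probes were called without it. In room air, WT air replicate 1 stood apart and had an array weight of 0.195.

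Mmp28 has 2 probes on the array. One, ILMN_1260453, was undetected on all 16 arrays and was not tested. The other, ILMN_3159029, had normalized log2 levels of 6.20, 5.69, 5.39, 5.54 and 5.82 in KO smoke, against 5.67, 6.06, 6.48, 6.03 and 5.70 in WT smoke. The groups overlapped, and the log2 difference of -0.26 ± 0.17 (KO minus WT, SE) did not pass (limma, adjusted p = 0.999). It was detected on all 16 arrays, in KO as in WT. Neither the deleted part of the gene nor the position of the probe is given in the sources used here, so that this probe does not check the genotype labels.

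Cuedc1, which encodes a protein with a ubiquitin-binding CUE domain, showed the clearest difference. Its probe ILMN_1229454 stood at 6.84, 6.75, 6.84, 7.09 and 6.50 in KO smoke, against 4.46, 4.78, 4.51, 4.81 and 4.72 in WT smoke. It was detected on all 5 KO smoke arrays and was not detected on any WT smoke array. Every KO smoke array thus lay above every WT smoke array and above background. The fitted log2 difference was 2.15 ± 0.14 (SE, adjusted p = 6.57e-07). Because WT smoke gives only a bound, Cuedc1 was at least 3.74-fold higher in KO smoke on this background-corrected scale. This bound sets the mean of KO smoke against the mean, over WT smoke arrays, of either the lowest level of any detected probe or the level of Cuedc1 itself, whichever was higher. The log2 difference was 0.75 without background correction and 0.41 with the authors' normalized values, so that its size depends on the processing. In air the probe was again detected on all 3 KO arrays (6.44, 5.96 and 6.80) and on none of the 3 WT arrays (4.65, 4.47 and 4.75).

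Unc45b, a chaperone that folds muscle myosin, fell. Probe ILMN_2732747 had levels of 8.35, 8.46, 8.46, 8.30 and 8.51 in KO smoke, against 9.52, 9.79, 9.92, 9.81 and 9.89 in WT smoke. The groups were more than 1 log2 unit apart at their closest samples. The log2 difference was -1.37 ± 0.13 (SE, adjusted p = 5.96e-05), and the second probe, ILMN_3153940, gave -1.29 ± 0.13 (SE, adjusted p = 9.89e-05). The remaining probe, ILMN_3074890, was detected on 1 KO smoke array and on no WT smoke array and was not tested. In air, Unc45b averaged 8.23 in KO and 8.79 in WT on the first probe. The air difference of -0.56 did not pass (adjusted p = 0.151) and was -0.62 without WT air replicate 1. The genotype difference was larger under smoke than in air by -0.81 log2 units, which did not pass the test of the interaction (adjusted p = 0.515).

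Tlcd2, which encodes a membrane protein with a TLC domain, rose on both of its probes. ILMN_1249828 was at 6.02, 6.15, 5.92, 5.99 and 5.79 in KO smoke, against 5.33, 5.08, 4.85, 5.32 and 5.15 in WT smoke. ILMN_2814385 was at 5.43, 5.56, 5.33, 5.54 and 5.65 in KO smoke, against 4.63, 4.62, 4.77, 4.88 and 4.49 in WT smoke. Neither probe overlapped between groups, and both are dim, with the second detected on 5 KO smoke arrays and on 1 WT smoke array. The log2 differences were 0.83 ± 0.11 (SE, adjusted p = 0.00272) and 0.82 ± 0.11 (SE, adjusted p = 0.00301). In air they were 0.98 (adjusted p = 0.0123) and 0.68 (adjusted p = 0.0503), and without WT air replicate 1 they were 1.02 (adjusted p = 0.0412) and 0.65 (adjusted p = 0.175).

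Cfl2 encodes cofilin-2, the muscle form of a protein that severs actin filaments. Probe ILMN_1249976 was at 6.63, 6.73, 6.70, 7.11 and 6.69 in KO smoke, against 5.98, 6.01, 5.72, 5.82 and 6.26 in WT smoke. No KO smoke array lay as low as the highest WT smoke array. The log2 difference was 0.82 ± 0.14 (SE, adjusted p = 0.0442). The second probe, ILMN_1241871, differed by 0.81 ± 0.17 with no overlap but did not pass (adjusted p = 0.143). Cfl2 is on chromosome 12. Without KO smoke replicate 3 the first probe no longer passed (adjusted p = 0.0618), and it was called in 5 of 16 omissions of an array and in 7 of 12 alternative fits.

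Csf3r encodes the receptor for granulocyte colony-stimulating factor, which neutrophils carry. Probe ILMN_1241302 was at 5.91, 5.69, 6.23, 5.85 and 5.64 in KO smoke, against 6.68, 6.95, 6.90, 6.61 and 6.24 in WT smoke. The highest KO smoke array lay 0.01 below the lowest WT smoke array at 2 decimals. The log2 difference was -0.81 ± 0.14 (SE, adjusted p = 0.0442). All 5 Csf3r probes were lower in KO smoke. The brightest, ILMN_1255648, averaged 9.59 ± 0.30 in KO smoke and 10.55 ± 0.43 in WT smoke (SD, n = 5 each) and differed by -0.96 (adjusted p = 0.143), and the other 3 differed by -0.73, -0.61 and -0.26 without passing. In air ILMN_1241302 averaged 7.31 in KO and 7.65 in WT, both above the smoke groups. The air difference of -0.34 did not pass (adjusted p = 0.408) and was -0.24 without WT air replicate 1. Probe ILMN_1241302 was called in 4 of 16 omissions of an array and in 4 of 12 alternative fits, and so lost its call in most of them. Leaving out KO smoke replicate 3 gave -0.90 under smoke (adjusted p = 0.0130), and ILMN_2806180 then passed too (-0.92, adjusted p = 0.0212).

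**Figure D1:**
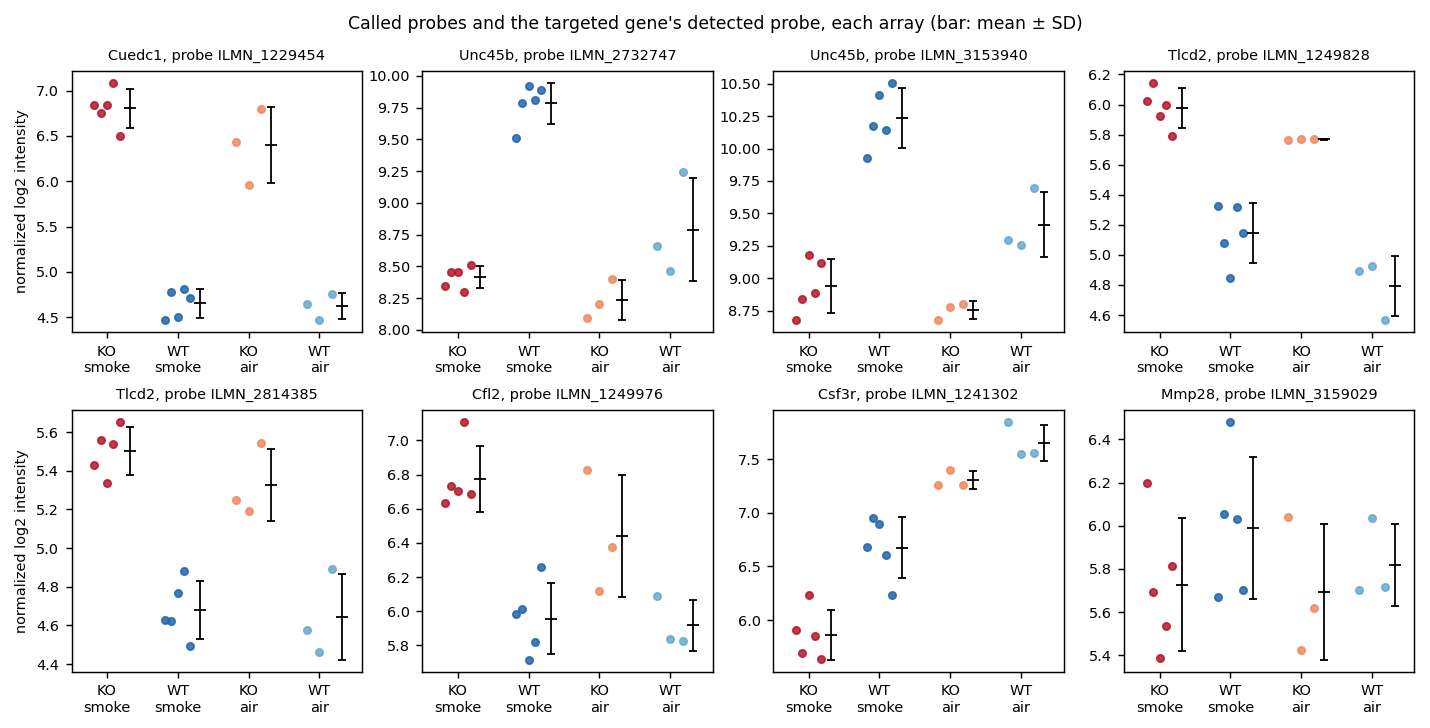
Normalized log2 intensity of the 7 called probes and of the detected Mmp28 probe on each array, for KO smoke, WT smoke, KO air and WT air from left to right (points: arrays, bars: mean ± SD, n = 5, 5, 3 and 3). Cuedc1, Unc45b, Tlcd2, Cfl2 and Csf3r do not overlap between KO smoke and WT smoke, whereas Mmp28 does.

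**Figure D2:**
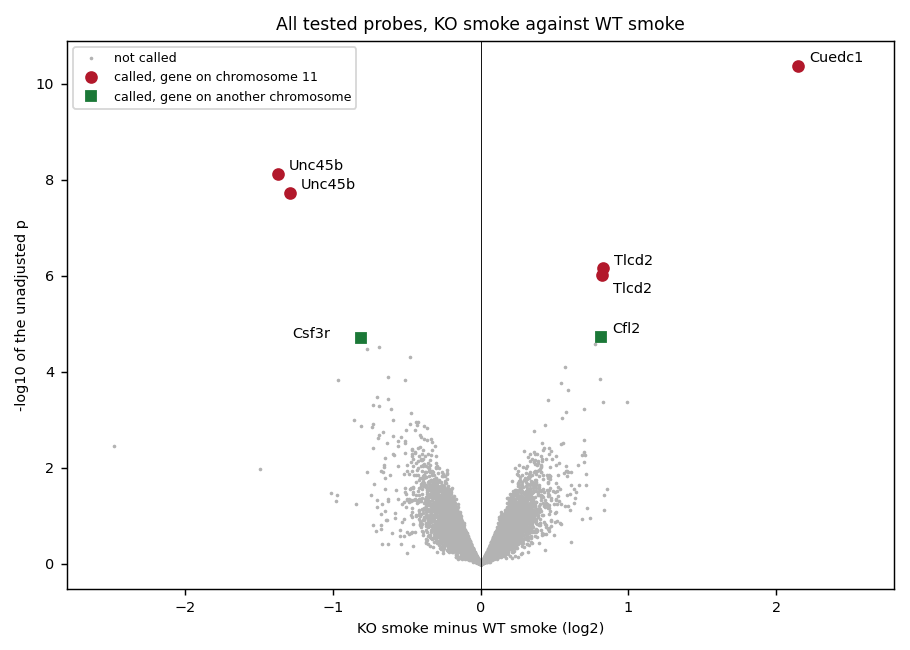
Difference between KO smoke and WT smoke (log2, x axis) against -log10 of the unadjusted limma p (y axis) for all 15489 tested probes. The 5 called probes on chromosome 11 (circles) lie highest, and Cfl2 and Csf3r (squares) stand close to uncalled probes.

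The same 7 probes had the same direction in air, where 6 had an unadjusted p under 0.05 and 2, of Cuedc1 and Tlcd2, passed. In air 50 of the 15489 probes (0.323%) were called between genotypes and 13.8% had an unadjusted p under 0.05. Without WT air replicate 1 the air comparison called 2 probes. The smoke and air comparisons share no arrays, but they share the estimate of the spread, the normalization and the probe filter, which used the smoke arrays. The interaction called 0 probes (0%) in limma, with 7.37% at an unadjusted p under 0.05, and its lowest adjusted p was 0.378.

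On chromosome 11, genes were placed by their order among protein-coding genes in RefSeq GRCm38.p6, counted from Mmp28. Negative positions lie before Mmp28 in chromosome order. Unc45b is at position -14, Cuedc1 at 70 and Tlcd2 at -134. Uncalled genes of this stretch with an unadjusted p under 0.05 are counted below, and 3 of them, with groups that did not overlap, are described. Nle1, a ribosome assembly factor that neighbours Unc45b at position -15, was at 8.0, 7.86, 7.57, 7.81 and 7.80 in KO smoke, against 7.07, 7.22, 6.83, 6.96 and 7.10 in WT smoke. The groups did not overlap, and the log2 difference of 0.77 ± 0.14 just missed the threshold (SE, adjusted p = 0.0516). In air Nle1 differed by 0.83, and by 0.67 without WT air replicate 1.

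Mrps23, a subunit of the mitochondrial ribosome, lies next to Cuedc1 at position 71. It was at 8.93, 9.01, 8.70, 8.84 and 8.83 in KO smoke, against 9.49, 9.46, 9.34, 9.28 and 9.15 in WT smoke, with no overlap (log2 difference -0.48, adjusted p = 0.0693). Haspin, a mitotic histone kinase at position -195, was named after its values were seen. Its levels were 6.66, 7.28, 6.79, 7.03 and 6.79 in KO smoke, against 6.32, 6.36, 6.42, 6.30 and 6.26 in WT smoke, again with no overlap (log2 difference 0.58, adjusted p = 0.381).

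Over all tested probes 4.55% had an unadjusted p under 0.05. Among chromosome 11 probes within 50 genes of Mmp28 the share was 13.3% of 98. Moving outward, it was 8% of 100 probes over the next 50 genes, 13.3% of 150 over the next 100, 5.30% of 132 and 3.12% of 160 over the following pair of steps of 100 genes, 4.56% of 329 over the next 200 and 3.31% of 363 beyond. All 5 called probes of the chromosome thus lay within 200 genes of Mmp28. The direction was mixed, with Unc45b and Mrps23 lower beside Nle1, Cuedc1 and Tlcd2 higher.

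The 40 measured genes nearest to Mmp28, 20 on each side, reached from 35 genes before it to 24 after it. Of these, Unc45b alone was called. A further 2 were higher (Rffl and Nle1) and 3 lower (the chemokine genes Ccl9, Ccl6 and Ccl4) at an unadjusted p under 0.05. Their median log2 difference was -0.05, against 0.00 over all genes tested. The labels give the background as C57BL/6 with no number of backcrosses and no strain of embryonic stem cell, and whether the genotypes carry the same DNA around Mmp28 was not tested.

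**Figure D3:**
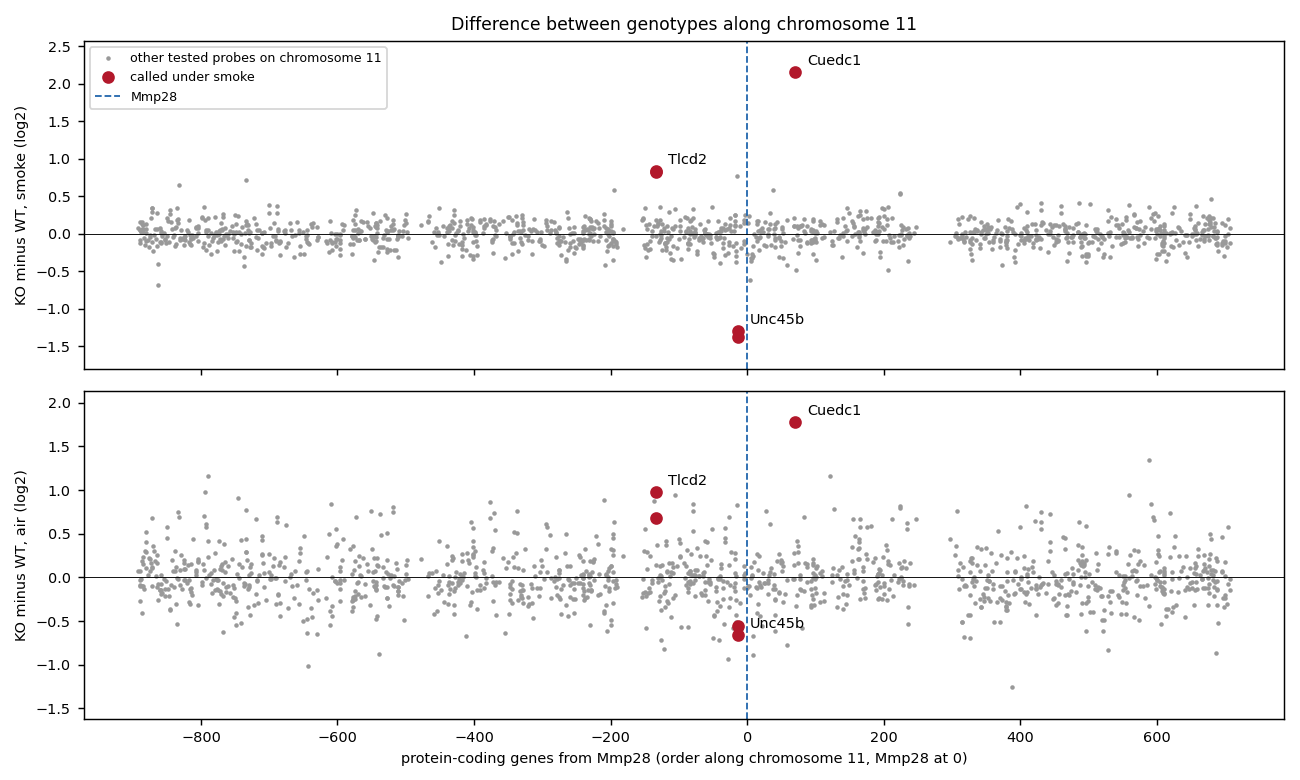
Log2 difference between KO and WT under smoke (upper panel) and in air (lower panel) for each tested chromosome 11 probe, placed by the number of protein-coding genes from Mmp28 at 0. Probes called under smoke (large circles) are those of Tlcd2, Unc45b and Cuedc1, at positions -134, -14 and 70.

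Off this stretch, the remaining probes among the 10 smallest p-values of either direction did not pass. Lower in KO smoke were Osm, Mid1, Chrm3, Aars2 and Arg2. Osm (oncostatin M, an interleukin-6 family cytokine) lies on chromosome 11, far from Mmp28 at position -863. Its probe ILMN_2543107 was at 7.14, 6.59, 6.68, 7.10 and 6.69 in KO smoke, against 7.70, 7.46, 7.50, 7.50 and 7.47 in WT smoke, without overlap (log2 difference -0.69, adjusted p = 0.0533). The brighter Osm probe ILMN_2919411 differed by -0.41 with overlap. Mid1, a microtubule-associated ubiquitin ligase on chromosome X, was at 5.15, 5.33, 5.12, 4.95 and 5.65 in KO smoke, against 5.77, 6.22, 5.88, 5.97 and 6.20 in WT smoke (log2 difference -0.77, adjusted p = 0.0533), and differed by 0.11 in air (0.21 without WT air replicate 1). Chrm3, the muscarinic M3 receptor, differed by -0.63 (adjusted p = 0.143). Aars2, a mitochondrial alanyl-tRNA synthetase, was detected on all 5 WT smoke arrays and on none of KO smoke. On the background-corrected scale Aars2 was at least 1.28-fold lower in KO smoke without passing (adjusted p = 0.143). Over the alternative fits and omissions its log2 difference ran from -0.56 to -0.07, so that its size depends on the processing. Arg2, the mitochondrial arginase, differed by -0.70 (adjusted p = 0.279).

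Higher in KO smoke without passing were Phf8, Akr1c14, Nkg7 and Slc30a4. Phf8, a histone demethylase, was at 5.22, 5.48, 5.57, 5.58 and 5.45 in KO smoke, against 5.01, 5.03, 4.87, 4.88 and 4.66 in WT smoke (log2 difference 0.57, adjusted p = 0.105). Akr1c14, an aldo-keto reductase, differed by 0.54 (adjusted p = 0.160) on one probe and by 0.23 on a second. Slc30a4, a zinc transporter, differed by 0.46 (adjusted p = 0.288).

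Neutrophil markers, of which 10 of 11 listed genes were tested, were lower in KO smoke in all 10 cases. None passed on the probe that stands for it, 3 had an unadjusted p under 0.05 (Csf3r, Cxcr2 and Mmp9), and the median log2 difference was -0.59. Over all 10518 tested genes the median was 0.00, with 1.98% of probes higher and 2.58% lower at an unadjusted p under 0.05. The mean level of the list was 9.20, 9.44, 9.55, 8.91 and 9.02 in KO smoke, against 9.66, 9.74, 9.72, 10.06 and 9.76 in WT smoke. The groups did not overlap on this log scale. On the linear scale, where the calprotectin genes S100a8 and S100a9 weigh most, the summed intensity of the list ran from 19389 to 51325 in KO smoke and from 33652 to 47628 in WT smoke, and the groups overlapped.

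Cxcr2, the receptor for neutrophil-attracting chemokines, was at 8.45, 8.39, 8.99, 8.08 and 8.30 in KO smoke, against 9.16, 9.59, 9.57, 9.54 and 8.63 in WT smoke (log2 difference -0.86, adjusted p = 0.486). S100a8 averaged 14.05 ± 0.53 in KO smoke and 14.46 ± 0.17 in WT smoke (SD, n = 5 each), a difference of -0.41. The granule genes Camp, Ngp and Ltf differed by -0.73, -0.71 and -0.34 with wide spread. In air the list's median difference was -0.35, and -0.13 without WT air replicate 1. Without KO smoke replicate 3, all 10 markers were lower under smoke with a median of -0.60, and 6 had an unadjusted p under 0.05.

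Natural killer cell markers, of which 7 of 10 listed genes were tested, were higher in KO smoke in all 7 cases with a median log2 difference of 0.35. An unadjusted p under 0.05 was found for 4 (Nkg7, Ncr1, Klrd1 and Eomes), and none passed. Over all tested probes 1.98% were higher at that level. Nkg7, a protein of cytotoxic granules, was at 11.02, 11.08, 11.54, 10.96 and 11.17 in KO smoke, against 10.78, 10.81, 10.43, 10.62 and 10.18 in WT smoke. The groups did not overlap (log2 difference 0.59 ± 0.13, SE, adjusted p = 0.207). Ncr1, the activating receptor NKp46, was at 5.28 to 5.79 in KO smoke and 4.91 to 5.34 in WT smoke (log2 difference 0.51, adjusted p = 0.984). Prf1, which encodes perforin, differed by 0.57 on its brighter probe, and by 0.35 without KO smoke replicate 3, and by 0.15 on the other probe.

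The mean level of the natural killer list was 8.15, 8.10, 8.43, 8.08 and 8.16 in KO smoke, against 7.89, 7.98, 7.80, 7.76 and 7.53 in WT smoke, without overlap. Its summed intensity ran from 4588 to 6509 in KO smoke and from 2907 to 4376 in WT smoke, also without overlap. In air the means were higher in both genotypes, with 9.01, 9.00 and 9.06 in KO and 8.28, 8.99 and 9.23 in WT. The median air difference of 0.24 became -0.04 without WT air replicate 1. Without KO smoke replicate 3 the smoke median was 0.31 and 2 genes had an unadjusted p under 0.05.

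**Figure D4:**
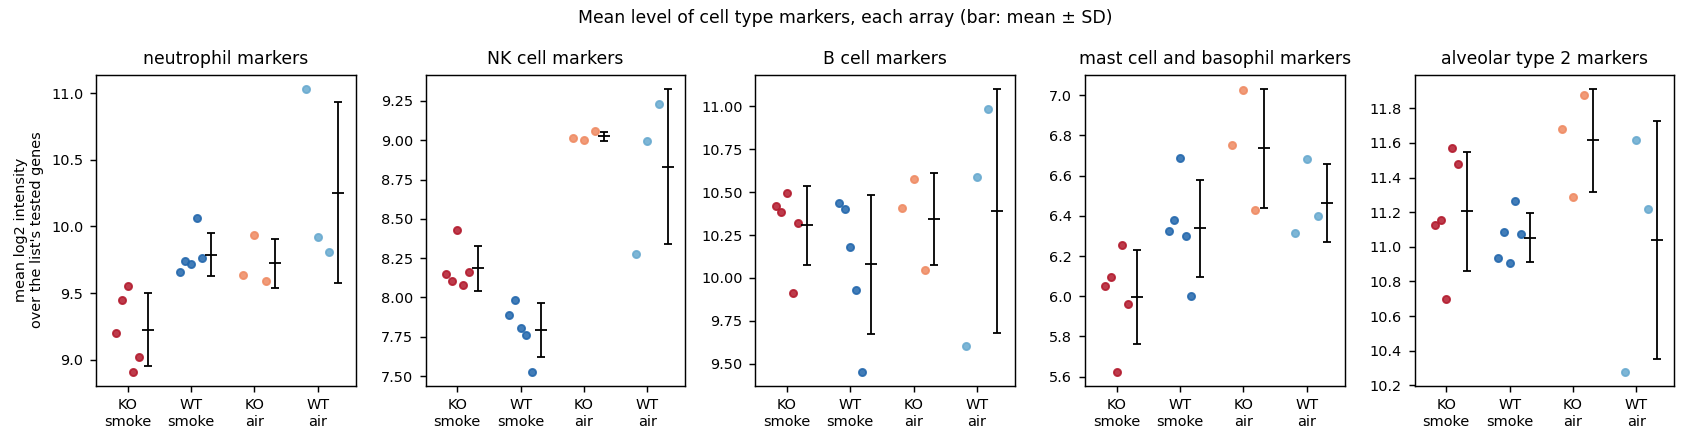
Mean log2 intensity over the tested markers of 5 cell types on each array, for KO smoke, WT smoke, KO air and WT air from left to right (points: arrays, bars: mean ± SD, n = 5, 5, 3 and 3). Neutrophil markers lie between 8.91 and 9.55 in KO smoke and between 9.66 and 10.06 in WT smoke, and natural killer markers between 8.08 and 8.43 in KO smoke and between 7.53 and 7.98 in WT smoke. WT air replicate 1 is the highest neutrophil and lowest B cell value of WT air.

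Other lymphoid markers differed less. B cell genes were higher in KO smoke in 9 of 9 cases with a median of 0.22, and none had an unadjusted p under 0.05. The B cell list's mean level ran from 9.91 to 10.50 in KO smoke and from 9.45 to 10.44 in WT smoke. T cell genes were higher in 8 of 10 cases with a median of 0.12. Leaving out each smoke array in turn gave medians of 0.10 (without WT smoke replicate 5) to 0.36 (without KO smoke replicate 4) for B cell genes and of 0.03 (without WT smoke replicate 3) to 0.20 (without KO smoke replicate 4) for T cell genes. Cd4, the co-receptor of helper T cells, was at 5.40, 5.43, 5.44, 5.23 and 5.40 in KO smoke, against 4.98, 5.13, 4.98, 4.91 and 4.96 in WT smoke. It was dim and did not overlap (log2 difference 0.39, adjusted p = 0.969), while the brighter Cd3e differed by 0.12. Thymus genes had a median of 0.24 over 3. In air the medians were -0.02 for B cell, -0.14 for T cell and -0.23 for thymus genes. Without WT air replicate 1 they were -0.43, -0.34 and -0.43.

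Among mast cell and basophil genes, 3 of 4 were lower, with a median of -0.55, against 0.26 in air (0.20 without WT air replicate 1). Fcer1a, the alpha chain of the high-affinity IgE receptor, was at 7.02, 6.98, 5.75, 7.19 and 6.84 in KO smoke, against 7.49, 7.50, 7.79, 7.61 and 7.42 in WT smoke (log2 difference -0.81, adjusted p = 0.530, and -0.56 without KO smoke replicate 3). Cpa3, carboxypeptidase A3, differed by -0.63 and the basophil protease Mcpt8 by -0.46. The connective-tissue mast cell protease Cma1 differed by 0.54 in the other direction.

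The inflammatory cytokine and chemokine list had 34 tested genes, of which 28 were lower in KO smoke, with a median of -0.22 and 7 lower at an unadjusted p under 0.05. These were Il1b, Cxcl1, Il6, Cxcl2, Ccl9, Ccl6 and Ccl4, and none passed. Over all tested probes 2.58% were lower at that level. Ccl9, Ccl6 and Ccl4, at positions 4, 5 and 7, are the same genes counted above among the neighbours of Mmp28. Il1b, interleukin-1 beta, was at 12.13, 12.02, 12.15, 11.33 and 11.61 in KO smoke, against 12.88, 12.80, 12.78, 12.58 and 11.84 in WT smoke. WT smoke replicate 5 lay within the KO smoke range (log2 difference -0.73, adjusted p = 0.843). The neutrophil-attracting chemokines Cxcl1 and Cxcl2 differed by -0.59 and -0.66 and Il6 by -0.65. The abundant lung chemokine Cxcl15 and the T cell chemokine Ccl5 differed by 0.16 and 0.23. The neutrophil markers, with the levels given above, were lower in the same comparison, and their part in these values was not tested. The list's median was -0.13 without KO smoke replicate 3 and -0.14 without WT smoke replicate 1. In air it was 0.04, and 0.30 without WT air replicate 1.

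Macrophage markers were lower in 5 of 6 cases with a median of -0.10, which was -0.03 without KO smoke replicate 3 and -0.16 without WT smoke replicate 2. Genes of alternative macrophage activation were lower in 14 of 15 cases with a median of -0.34, against 0.21 in air (0.08 without WT air replicate 1). Under smoke 3 were lower at an unadjusted p under 0.05 (2.58% of all tested probes were), and 1 without KO smoke replicate 3. The median was -0.13 without WT smoke replicate 1. Rnase2a, a ribonuclease of the eosinophil-associated family whose members have similar sequences, was undetected on all KO smoke arrays (4.39, 4.41, 4.57, 4.54 and 4.42). It was detected on all WT smoke arrays at 10.76, 6.05, 4.97, 5.90 and 7.04. On the background-corrected scale Rnase2a was at least 4.23-fold lower in KO smoke. Over the alternative fits and omissions its log2 difference ran from -2.97 to -0.81. It did not pass (adjusted p = 0.832), with an SD of 2.25 in WT smoke. Without WT smoke replicate 1 the bound was at least 2.19-fold lower. The lectin Mgl2 differed by -0.36 (-0.23 without KO smoke replicate 3) and the chemokine Ccl24 by -0.44. The abundant markers Chil3 (Ym1) and Mrc1 (the mannose receptor CD206) differed by -0.02 and 0.00. The other Chil3 probes differed by -0.27 and 0.04. Genes of classical activation were lower in 9 of 13 cases with a median of -0.21, which was -0.12 without KO smoke replicate 3, -0.12 without KO smoke replicate 4 and -0.11 without WT smoke replicate 1. In air it was -0.20, and 0.00 without WT air replicate 1. Irf1, a transcription factor of this list, differed by -0.09. Genes of lysosomes and lipid handling had a median of -0.12 over 15, and of -0.03 without KO smoke replicate 3, with Lpl at -0.37.

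Of 13 tested matrix metalloproteinases 8 were lower, with a median of -0.05. Mmp12, macrophage elastase, was at 9.27, 9.33, 7.43, 8.74 and 9.32 in KO smoke, against 11.49, 8.92, 10.34, 9.60 and 8.79 in WT smoke. The groups overlapped (log2 difference -1.01, adjusted p = 0.999, and -0.66 without KO smoke replicate 3). Mmp9, gelatinase B of neutrophils and macrophages, averaged 9.29 ± 0.49 in KO smoke and 9.95 ± 0.43 in WT smoke (SD, n = 5 each; log2 difference -0.66, adjusted p = 0.984). Mmp2, gelatinase A of fibroblasts, differed by 0.03. Other proteases and their inhibitors were lower in 14 of 18 cases with a median of -0.10, led by Adamts1 at -0.49, while the abundant cathepsin genes Ctsk and Ctsb differed by -0.29 and -0.08.

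Collagens and other matrix genes were higher in 15 of 19 cases with a median of 0.07, none at an unadjusted p under 0.05. Decorin (Dcn) and biglycan (Bgn) differed by 0.10 and 0.05 under smoke, whereas in air they differed by 1.03 and 0.74 and passed (adjusted p = 0.0386 for both). Without WT air replicate 1 they differed by 0.86 and 0.66 in air and did not pass (adjusted p = 0.175 and 0.159). The air median of the matrix list was 0.78, and 0.67 without WT air replicate 1. Elastic fibre genes had a median of 0.01 under smoke and 0.60 in air (0.56 without WT air replicate 1). The interaction passed for none of these genes. Alveolar type 2 markers were higher in 10 of 10 cases with a median of 0.13, type 1 markers in 6 of 6 with 0.12 and club cell markers in 7 of 7 with 0.33. Leaving out each smoke array in turn gave medians of 0.08 (without KO smoke replicate 5) to 0.28 (without KO smoke replicate 3) for type 2, of 0.05 (without WT smoke replicate 1) to 0.18 (without WT smoke replicate 5) for type 1 and of 0.21 (without WT smoke replicate 2) to 0.43 (without KO smoke replicate 2) for club cell markers. Sftpc and Scgb1a1, which define type 2 and club cells, differed by 0.12 and 0.00. Ciliated cell genes had a median of 0.18, endothelial genes 0.10, fibroblast genes 0.11, smooth muscle genes 0.10, lymphatic endothelial genes -0.11 and dendritic cell genes -0.08. In air the medians were 0.62 for type 2, 0.79 for type 1 and 0.08 for club cell markers. Without WT air replicate 1 they were 0.21, 0.61 and -0.33. Ciliated, endothelial and fibroblast genes had air medians of -0.27, 0.46 and 0.71 (-0.75, 0.33 and 0.62 without WT air replicate 1). Those of smooth muscle, lymphatic endothelial and dendritic cell genes were 0.20, 0.43 and -0.09 (0.10, 0.37 and -0.01).

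Mesothelial genes were higher in 4 of 5 cases with a median of 0.31, and 1.35 in air (1.17 without WT air replicate 1). Mesothelin (Msln) was at 6.42 to 7.62 in KO smoke and 5.29 to 6.80 in WT smoke (log2 difference 0.71, adjusted p = 0.999). Heart muscle genes had a median of 0.19 over 4, with Myl7, the atrial myosin light chain, at 5.13, 5.59, 5.45, 5.17 and 5.67 in KO smoke and 4.68, 4.62, 5.07, 4.55 and 4.81 in WT smoke, without overlap. Skeletal muscle genes had a median of -0.11 over 2. Unc45b and Cfl2, both known from muscle, differed in opposite directions, and the part of muscle RNA in their differences was not tested.

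Genes of the interferon response had a median of -0.05 over 17, of xenobiotic and oxidative stress 0.00 over 19, of the cell cycle -0.03 over 15 and of the TGF-beta pathway -0.03 over 16. Erythroid and coagulation genes had a median of 0.05 over 7. Goblet cell, adipocyte and sex-linked lists held 2, 1 and 2 tested genes, with medians of -0.22, 0.11 and -0.04. Genes with probes that disagreed in sign at an unadjusted p under 0.05 were H3c14 and Pafah1b1, and none of their probes passed.

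**Figure D5:**
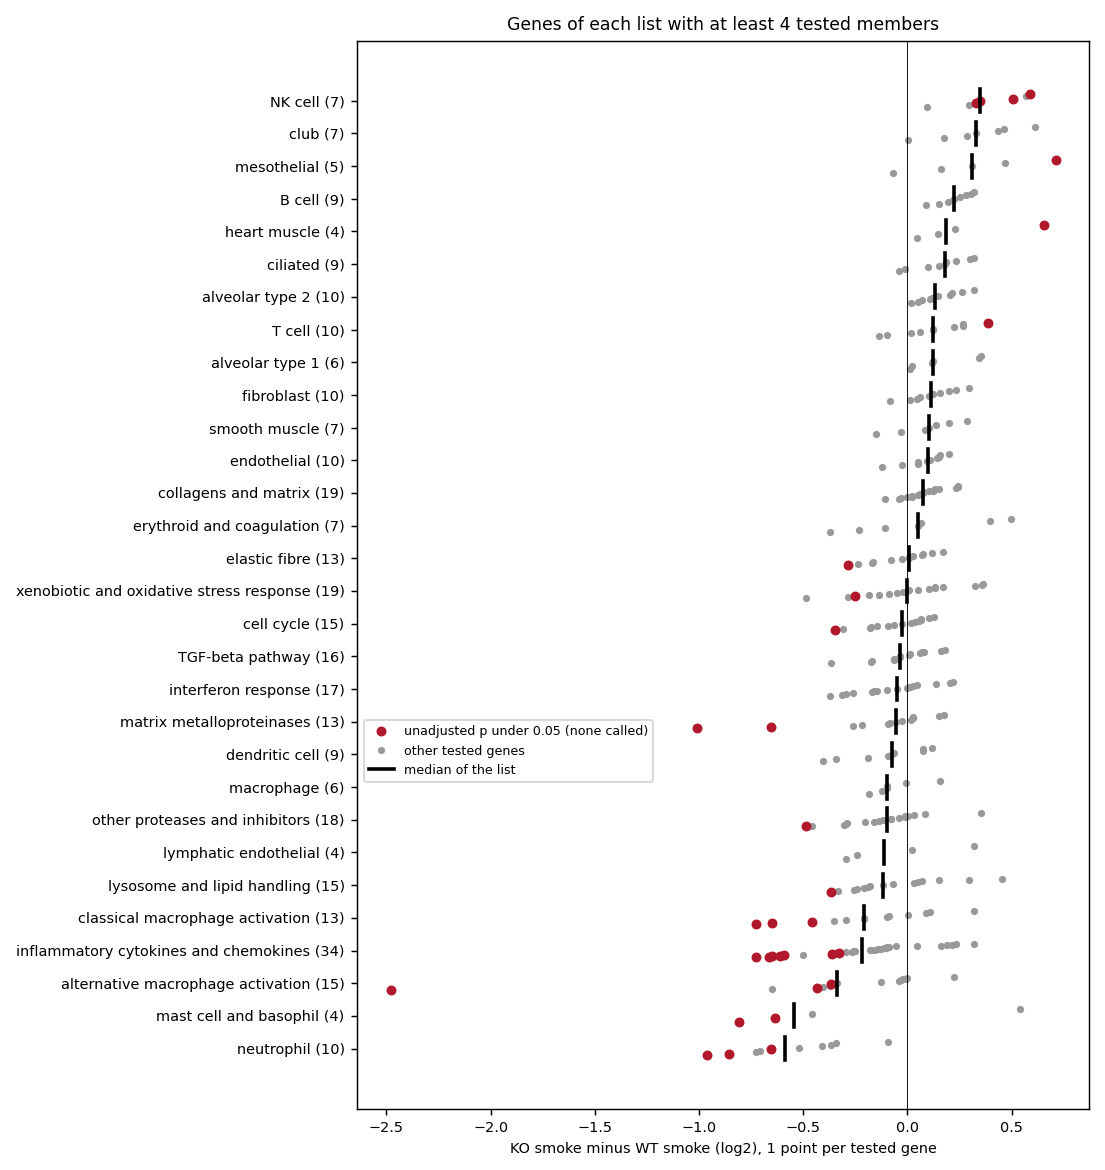
Log2 difference between KO smoke and WT smoke for each tested gene (points) of every list with at least 4 tested members, ordered by the list's median (black bars), with the number of tested genes in brackets. Neutrophil, mast cell and alternative macrophage activation genes lie lowest, and natural killer, club and mesothelial genes highest, and no point passed the adjusted threshold.

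The width of the comparison sets what it can show. The 95% confidence interval of a probe's log2 difference had a median width of 0.28 on either side. For 98.7% of tested probes it excluded a difference of 2-fold, and for 86.0% a difference of 1.5-fold. These intervals refer to background-corrected and normalized intensities, not to amounts of transcript. Sizes depended on the processing. Over the alternatives Cuedc1 ran from 0.41 to 2.23 and Tlcd2 probe ILMN_2814385 from 0.11 to 0.87, both dim in WT smoke. The brighter gene Unc45b ran from -1.50 to -0.98 on probe ILMN_2732747. A difference of 0.5 log2 units or more in size was estimated for 156 probes (1.01%) and one of 1 or more for 6 probes, of Cuedc1, Unc45b, Rnase2a, Mmp12 and Erdr1. Groups did not overlap for 1.1% of probes, with KO smoke above for 0.445% and below for 0.659%. An unadjusted p under 0.05 was reached by 705 probes.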

How the data were processed

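Total RNA of whole lung was hybridized to 1-colour arrays, and the deposited table holds for each of 25697 probes and 16 arrays an unnormalized intensity and a detection p-value, per the file headers. A second deposited table of intensity values, normalized by the authors in a way not stated, served as an alternative. The submitters' processing notes name lumi. Intensities were background corrected with normexp from the detection p-values (offset 16) and quantile normalized on the log2 scale in limma 3.58.1 (R 4.3.3). Probes with detection p under 0.05 on at least 3 of the 10 smoke arrays were tested (15489). A linear model of 4 group means over all 16 arrays with empirical Bayes moderation gave the contrasts, adjusted over all tested probes and tested on simulated data. Single values over the smoke arrays had an exact permutation test over 252 splits, whose smallest p is 0.00794.

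The annotation named 1 gene for 23978 probes, several for none and none for 1719. The brightest probe stood for a gene in a list. Genes were named by rule: Mmp28, all called probes, the 10 smallest p-values per direction, list members with the smallest p or the highest level, and probes detected in 1 genotype only. The comparison, the 14 pathway and 21 cell type lists and the rule were chosen with earlier results of these data known. Alternatives were an offset of 50, uncorrected background, median scaling, the smoke arrays alone, the second table, other filters, array weights, trend and robust moderation, a 1.5-fold threshold, a replicate block, the array background as a covariate and leaving out each array. Air differences without WT air replicate 1, list medians without single smoke arrays and the bound of Rnase2a without WT smoke replicate 1 were added after seeing the data. No BeadChip or hybridization batch is given in the sources used here. No array pair among 120 was identical, and 0 columns of per-sample values were left unused.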

Additional observations from a re-analysis of the deposited data

Results flagged for a closer look

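In groups of 5, a single array stood apart from the other 4 in 14 of 138 checks. Chance would give about 6.9 if the checks were independent and the values unselected. Several probes belonged to the same gene or were chosen by their values, so the number expected by chance is not known. In KO smoke, replicate 3 stood apart for Csf3r probe ILMN_2806180 (9.09, others 7.99 to 8.20), Il1r2 (8.70, others 7.94 to 8.14), Prf1 (10.20, others 9.02 to 9.24), Fcer1a (5.75, others 6.84 to 7.19) and the mean natural killer level (8.43, others 8.08 to 8.16). KO smoke replicate 4 stood apart for Cfl2 (7.11, others 6.63 to 6.73) and Cd4 (5.23, others 5.40 to 5.44), and KO smoke replicate 5 for Ncr1 (5.28, others 5.66 to 5.79). In WT smoke, replicate 1 stood apart for Osm (7.70, others 7.46 to 7.50) and Arg1 (8.26, others 5.70 to 6.31). Replicate 4 of WT smoke stood apart for Erdr1 (8.92, others 8.69 to 8.74) and the mean neutrophil level (10.06, others 9.66 to 9.76). Replicate 5 of WT smoke stood apart for Il1b (11.84, others 12.58 to 12.88) and Nr1d1 (9.21, others 8.62 to 8.75).

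Among the named probes, Phf8 was higher in every KO smoke array than in every WT smoke array and lower in every KO air array than in every WT air array. The smoke and air differences differed by 0.94 log2 units, which did not pass the test of the interaction (limma, adjusted p = 0.378).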

How the results depend on the processing

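The 7 calls became 4 with the authors' normalized values, 11 with the stricter filter, 21 with array weights and 4 with the array background as a covariate, and 5 to 10 under the other fits. Leaving out each array in turn gave 5 to 10 calls. Cuedc1 and both Unc45b probes were called under all 12 alternative fits and all 16 omissions of an array. The Tlcd2 probes were called under 11 and 9 of the 12 fits and every omission. Cfl2 was called under 7 fits and 5 omissions, and Csf3r under 4 fits and 4 omissions. With array weights 7 calls were higher and 14 lower in KO smoke, and with median scaling 4 and 5, against 4 and 3; the 14 include Cxcr2 and 3 Csf3r probes. None of the 62 probes followed through these alternatives changed direction. Many list members were not among them. Chil3, slightly lower above, was 0.01 higher without KO smoke replicate 3 on the probe that stands for it. The cause of these changes was not tested. Of the probes that stand for list genes, Cxcr2 and Csf3r were called with array weights, and leaving out each smoke array gave 0 to 1 (Csf3r without WT smoke replicate 5). The medians of the elastic fibre, TGF-beta, xenobiotic, erythroid, sex-linked, goblet and endothelial lists changed sign under some of 15 alternatives, goblet (-0.22, then 0.02) and endothelial (0.10, then -0.0048) without WT smoke replicate 1. Sizes of other medians moved over the same 15 alternatives. The natural killer median ran from 0.11 to 0.44 and the neutrophil median from -0.64 to -0.41. The mast cell and basophil median ran from -0.62 to -0.11 and that of alternative macrophage activation from -0.37 to -0.06. Leaving out each smoke array, the difference in detected probes (KO minus WT) ran from 125.7 to 263.95 and in median intensity from -6.07 to -3.10. Replicate numbers did not pair the arrays: same-numbered arrays correlated at -0.13 to 0.16 and 2 of 10 correlated best with their own number. With the replicate block 7 probes were called, 5 of them shared, and the others were Dbp and Tef. Array number and dim probes limit what small differences can be seen.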

Other observations

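Some probes outside the naming rule were chosen after their values were seen, and none passed in the fit used above. Dbp, a transcription factor, ran between 11.70 and 12.35 in KO smoke and between 10.79 and 11.56 in WT smoke, without overlap (log2 difference 0.83, adjusted p = 0.296). The related factor Tef differed by 0.70 (adjusted p = 0.340). With the replicate block, whose numbers did not pair the arrays, both were called (adjusted p = 0.0342 and 0.0388). In air Dbp and Tef differed by 0.04 and 0.10, and by -0.13 and -0.08 without WT air replicate 1, so that the direction turned.

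Pgk1, a glycolytic enzyme, was at 6.31, 6.53, 5.54, 6.34 and 6.07 in KO smoke, against 5.66, 5.33, 4.92, 5.23 and 4.71 in WT smoke on probe ILMN_2797973 (log2 difference 0.99, adjusted p = 0.296), and differed by 0.99 in air (1.15 without WT air replicate 1). It passed with array weights (log2 difference 1.11). Erdr1, which neighbours Mid1 at the pseudoautosomal boundary, was at 7.37, 6.90, 7.35, 6.60 and 8.11 in KO smoke, against 8.69, 8.74, 8.74, 8.92 and 8.70 in WT smoke (log2 difference -1.50, adjusted p = 0.999), and passed when the 10 smoke arrays were fitted alone (adjusted p = 0.0220, or 0.0251 when also normalized alone) and without WT air replicate 3 (adjusted p = 0.0337). In air it was at 8.34, 9.04 and 7.84 in KO and 8.19, 7.89 and 4.36 in WT, where WT air replicate 3 was far below the others.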
